A study of Mus musculus with 6 samples.

Results

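Pou5f1, Sox2 and Nanog, the 3 core transcription factor genes of pluripotency, were set beside Sall4, Lin28a, Utf1 and Trim71, 4 genes whose products work with them or alongside them in mouse embryonic stem cells (mESCs). The 7 genes were chosen by name from the 42450 genes listed in the total RNA table, and all 7 were among the 18905 genes tested. Total RNA was sequenced from 3 WT and 3 Srrm2+/- libraries of the male E14tg2a.4 mESC line, to ask how lowering Srrm2, the gene of a splicing factor found in nuclear speckles, alters expression in these cells. WT cells were the parental line, and Srrm2+/- cells were the gene-trap line CG0630, made in that parent and carrying a cassette in exon 1 of one Srrm2 allele. Both groups were grown on gelatin with LIF and finally in serum-free ESGRO medium with LIF, without other treatment. The mutant genotype is therefore represented by 1 line. According to the study's methods, replicates were independent batches frozen at different passages, and the WT cells were at higher passages than the Srrm2+/- cells, so that passage and genotype cannot be told apart.

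Pluripotent cells hold their identity through a circuit in which POU5F1 (OCT4) and SOX2 bind DNA side by side, at joined octamer and SOX motifs, and activate Nanog, Utf1 and their own genes. SALL4 is a zinc finger partner of these factors and UTF1 is a chromatin-bound protein of undifferentiated cells. LIN28A and TRIM71 act on RNA: LIN28A blocks the maturation of let-7 microRNAs, which silence mRNAs through sites in their 3′ untranslated regions (UTRs), and TRIM71 represses mRNAs and is itself a classic let-7 target.

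In Srrm2+/- mESCs the 7 genes did not move as a block. Nanog and Sox2 fell, Lin28a and Utf1 rose, and Pou5f1, Sall4 and Trim71 did not pass the test. A gene is called here at an adjusted p under 0.05 in a quasi-likelihood test with edgeR over all tested genes, and levels are CPM, counts scaled to library size after TMM normalization. By this rule 2 members were called higher and 2 lower, 57.1% in all, against 25.3% of all tested genes, 13.6% being called higher and 11.7% lower. The members were chosen with earlier results of these data known, so this share describes them and gives no separate evidence. By mean CPM they ranked from 120 to 3337 among the 18905 tested genes, many of which had fewer counts. The libraries of both groups were fully separated for 4 members and for 41.4% of all tested genes. The median log2 fold change was -0.04 over the members and -0.0025 over all tested genes. Because RNA came from whole cultures, fewer cells of a type and less RNA per cell cannot be told apart.

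**Figure D1:**
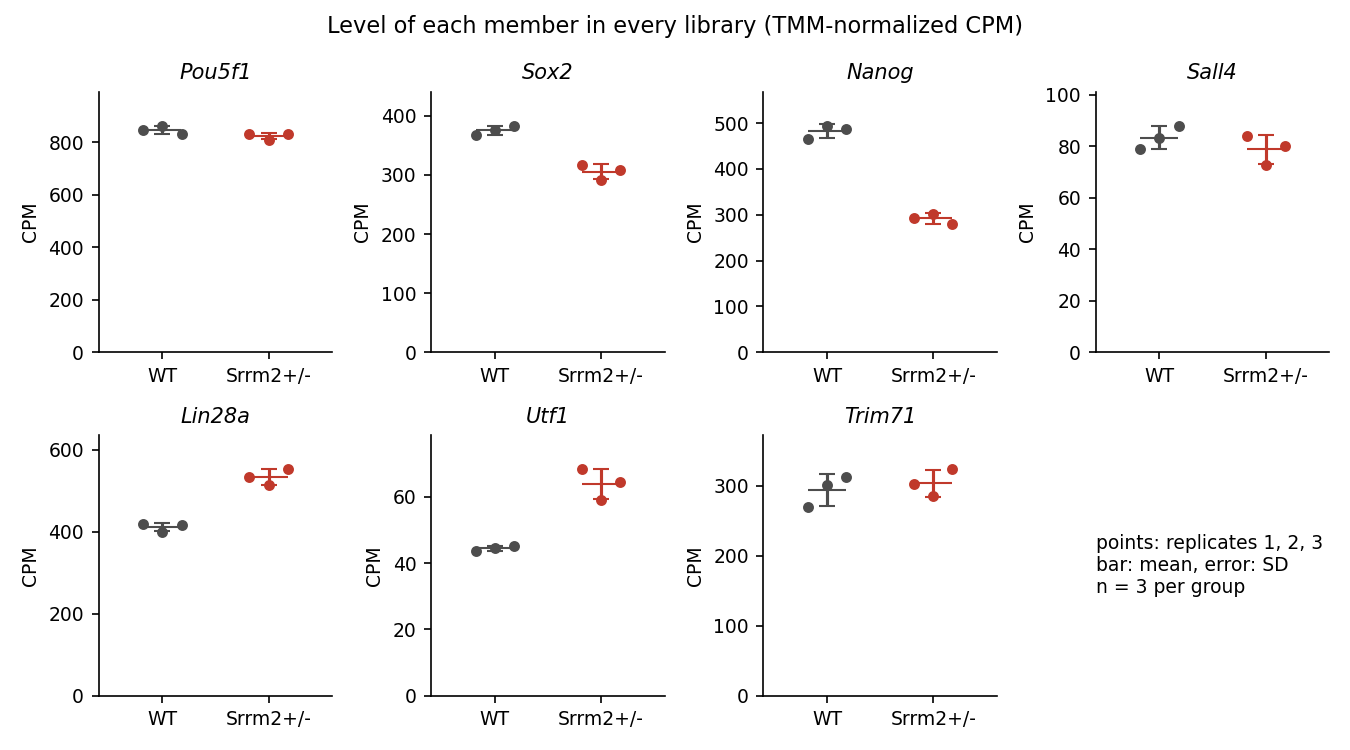
CPM of each of the 7 members (vertical axes, starting at 0) in the 3 WT and 3 Srrm2+/- libraries, with points for libraries, bars for means and error bars for SD (n = 3). The groups are separated for Sox2, Nanog, Lin28a and Utf1, and they overlap for Pou5f1, Sall4 and Trim71.

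The sequence at which POU5F1 and SOX2 meet on Nanog is shown first, because Nanog had the largest change of the 7 members. The 150 bases before the annotated Nanog start, chr6:122707339-122707488 on the plus strand (RefSeq, GRCm38.p6), are printed with an octamer (TTTGCAT) and a SOX motif (ACAATG) in capitals, beginning 75 bases before the start.

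Nanog promoter: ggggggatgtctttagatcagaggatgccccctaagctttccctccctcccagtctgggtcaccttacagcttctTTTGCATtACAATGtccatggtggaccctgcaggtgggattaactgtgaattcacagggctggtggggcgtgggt

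These letters were searched on both strands in the 32851 RefSeq promoter windows, each of which spans an annotated start. The octamer occurred in 4.63% of the windows and the SOX motif in 12.6%. Both motifs in this order and 1 base apart occurred in 2 windows, or 0.00609%, and both windows belong to Nanog. The spacing was chosen after the Nanog promoter had been read, so its rarity is a description of this window. Promoter windows of 6 members were matched, and Sall4 was not matched. The Sox2 window held the octamer without the SOX motif. This window, chr3:34649745-34650044, ends before the Sox2 start given below (34650405), so the bases at that start were not searched. The windows of Lin28a and of the second Pou5f1 start held the SOX motif alone, and those of Utf1, Trim71 and the first Pou5f1 start held neither. The octamer was thus present for both members that fell and absent for both that rose, while the SOX motif was found on either side. These letters describe sequence and not binding, and with 2 members in each direction nothing is read from them.

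The let-7 microRNAs link the RNA-binding members, and their shared letters are shown next. The seed, bases 2 to 8 of the mature microRNA, is GAGGUAG in 11 let-7 family genes with 9 distinct mature sequences (RefSeq, GRCm38.p6). Of those with any count in this table, the mature sequences are given with the seed in capitals.
let-7g: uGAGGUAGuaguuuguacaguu
let-7f: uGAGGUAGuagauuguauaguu
miR-98: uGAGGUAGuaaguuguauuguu

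The matching site, CTACCTCA, was searched on the sense strand of 20932 3′ UTRs, each from the longest coding transcript of a gene, and occurred in 3.00% of them. Among the members it occurred in the 3′ UTRs of Lin28a, Sall4 and Trim71, and not in those of Pou5f1, Sox2, Nanog or Utf1. The 26 bases around each site are given in mRNA sense, with the site in capitals, on GRCm38 and all on the minus strand.
Lin28a, chr4:134005185-134005210: cacagcctgttgaaCTACCTCAtttt
Lin28a, chr4:134004547-134004572: agatcgccacaaacCTACCTCActgt
Sall4, chr2:168748936-168748961: gggctttaatttatCTACCTCAatta
Trim71, chr9:114512468-114512493: acattgcctaagtcCTACCTCAgctt
Trim71, chr9:114512372-114512397: gtgataatttctatCTACCTCAactc
Trim71, chr9:114509043-114509068: ttagtatggattttCTACCTCAattt
Trim71, chr9:114509017-114509042: tggcaaaaagttgtCTACCTCAcgtc

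Long 3′ UTRs hold more sites by length alone, so each count was set beside genes with a 3′ UTR within 20% of the same length. The member itself is counted among these genes. Trim71 had 4 sites in a 3′ UTR of 5512 bases, and 0.126% of 793 genes of like length had at least as many. Lin28a had 2 sites in 2775 bases, and 0.338% of 2369 such genes had at least as many. Sall4 had 1 site in 1697 bases, and 3.50% of 2804 genes of like length had at least 1. The 3 members with a site are 1 that rose and 2 that did not pass the test.

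The 6 libraries held between 54151433 and 69933421 estimated counts, and log2 CPM correlated at 0.985 to 0.989 within groups and at 0.971 to 0.975 between groups. Srrm2 itself was at 91.2, 98.3 and 97.7 CPM in WT and at 62.3, 56.2 and 59.6 CPM in Srrm2+/-. The groups did not overlap, and the fall was 1.61-fold (log2 fold change -0.69, SE 0.05, adjusted p = 2.38e-05, edgeR). The trapped gene was thus lower in the libraries labelled as carrying the trap.

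Pou5f1 encodes the POU-domain factor without which mESCs leave the pluripotent state. The gene lies on chromosome 17 from 35506018 to 35510772, plus strand (ENSMUSG00000024406). It was at 848, 863 and 830 CPM in WT libraries 1 to 3 and at 831, 810 and 830 CPM in Srrm2+/- libraries 1 to 3. The lowest WT library lay within the Srrm2+/- range, and the log2 fold change was -0.04 (SE 0.04, 95% confidence interval -0.12 to 0.04, adjusted p = 0.485, edgeR). With 44462 to 57506 estimated counts per library, Pou5f1 was the deepest measured of the 7 members, so that a fall beyond 0.12 on the log2 scale lay outside its interval. Its SD came to 1.93% of the mean in WT and 1.42% in Srrm2+/-, below the median of 3.50% and 3.52% over the 4874 genes whose mean log2 CPM reached 5.

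Sox2, an HMG-box factor that pairs with POU5F1, lies on chromosome 3 from 34650405 to 34652461, plus strand (ENSMUSG00000074637). WT libraries were at 367, 376 and 383 CPM and Srrm2+/- libraries at 317, 292 and 308 CPM. Every Srrm2+/- library lay below every WT library. Sox2 fell 1.23-fold (log2 fold change -0.30, SE 0.04, adjusted p = 0.00124, edgeR), and 16.7% of tested genes had a lower fold change. The fall was modest beside that of Nanog and amounted to 18.5% of the WT level.

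Nanog, the homeodomain factor that sustains self-renewal and whose level varies between mESCs, lies on chromosome 6 from 122707489 to 122714633, plus strand (ENSMUSG00000012396). It was at 465, 494 and 487 CPM in WT and at 293, 303 and 281 CPM in Srrm2+/-. The gap between the groups, from 303 to 465 CPM, was far wider than the range within either. Nanog fell 1.65-fold (log2 fold change -0.72, SE 0.04, 95% confidence interval -0.82 to -0.62, adjusted p = 8.60e-06, edgeR), and 5.03% of tested genes had a lower fold change. The fall was close in size to that of the trapped gene Srrm2 (-0.69, SE 0.05), and these 2 values were not tested against each other.

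Sall4 encodes a zinc finger factor that binds POU5F1 and NANOG and recruits the NuRD complex. It lies on chromosome 2 from 168748332 to 168767943, minus strand (ENSMUSG00000027547). Levels were 78.8, 83.2 and 87.8 CPM in WT and 83.8, 72.7 and 79.9 CPM in Srrm2+/-. The groups overlapped, with 1 Srrm2+/- library below all WT libraries, and the log2 fold change was -0.08 (SE 0.06, 95% confidence interval -0.22 to 0.06, adjusted p = 0.395, edgeR). The interval is wider than that of Pou5f1 and leaves room for a fall of up to 0.22.

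Utf1, an early marker of the undifferentiated state and a direct target of POU5F1 and SOX2, lies on chromosome 7 from 139943789 to 139945112, plus strand (ENSMUSG00000047751). It was at 43.7, 44.6 and 45.1 CPM in WT and at 68.3, 59.0 and 64.4 CPM in Srrm2+/-. All Srrm2+/- libraries were above all WT libraries, and they were also more spread, with an SD of 7.29% of the mean against 1.56% in WT. Utf1 rose 1.44-fold (log2 fold change 0.52, SE 0.06, adjusted p = 0.000215, edgeR), and 12% of tested genes had a higher fold change. It thus moved in the direction opposite to Nanog and Sox2.

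Lin28a, the RNA-binding brake on let-7 maturation, lies on chromosome 4 from 134003330 to 134018841, minus strand (ENSMUSG00000050966). WT libraries were at 419, 400 and 417 CPM and Srrm2+/- libraries at 533, 513 and 552 CPM. The lowest Srrm2+/- library was above the highest WT library by more than the range within either group. Lin28a rose 1.29-fold (log2 fold change 0.37, SE 0.04, adjusted p = 0.000299, edgeR), and 16.4% of tested genes had a higher fold change.

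Trim71, the gene of an RNA-binding repressor and ubiquitin ligase of early embryonic cells, lies on chromosome 9 from 114507133 to 114564369, minus strand (ENSMUSG00000079259). It was at 269, 301 and 312 CPM in WT and at 302, 284 and 323 CPM in Srrm2+/-. The groups overlapped, and the log2 fold change was 0.05 (SE 0.07, 95% confidence interval -0.10 to 0.19, adjusted p = 0.675, edgeR). The sign turned on leaving out WT replicate 1 (-0.01) or Srrm2+/- replicate 3 (-0.0011), so no direction is given. Trim71 had the widest WT spread of the members, with an SD of 7.61% of the mean.

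**Figure D2:**
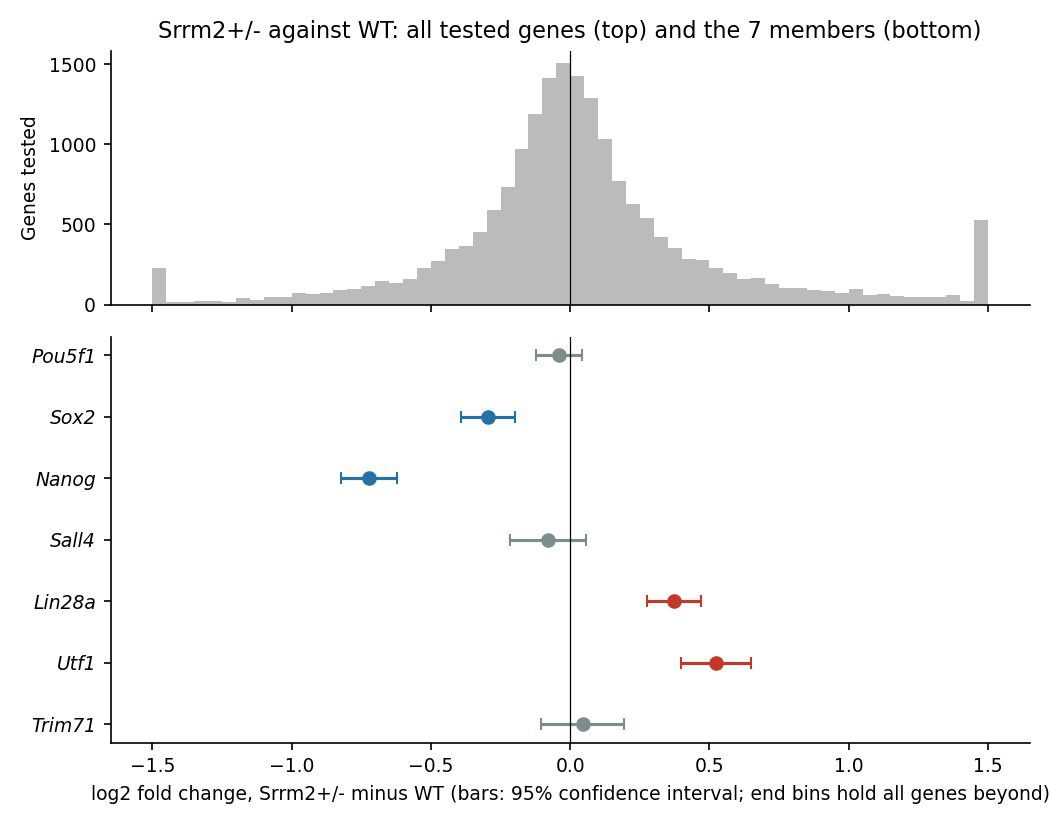
Distribution of log2 fold changes (Srrm2+/- minus WT, horizontal axis) over the 18905 tested genes (top, number of genes; the end bins gather all genes beyond them) and the 7 members with 95% confidence intervals (bottom; blue called lower, red called higher, grey not called). Nanog (-0.72) and Sox2 (-0.30) lie left of 0 and Lin28a (0.37) and Utf1 (0.52) right of it, while the intervals of Pou5f1, Sall4 and Trim71 cross 0.

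The changes altered the order of the members by level. Levels between genes are given as CPM per kb of annotated exon, with SD and n = 3. In WT the order was Pou5f1 (377 ± 7.26), Nanog (215 ± 6.80), Sox2 (182 ± 3.85), Lin28a (103 ± 2.62), Utf1 (36.2 ± 0.564), Trim71 (31.5 ± 2.40) and Sall4 (15.04 ± 0.818). Neighbours in this order did not overlap in any library, although Utf1 at its lowest (35.6) was close to Trim71 at its highest (33.4). In Srrm2+/- cells the order became Pou5f1 (366 ± 5.20), Sox2 (149 ± 6.22), Lin28a (133 ± 4.85), Nanog (130 ± 4.93), Utf1 (52.1 ± 3.80), Trim71 (32.5 ± 2.07) and Sall4 (14.2 ± 1.01). Nanog thus went from second place to a level where its libraries (125 to 135) overlapped those of Lin28a (128 to 138), while Utf1 drew clear of Trim71. The place of Lin28a depended on the length used. Per kb of the longest transcript its Srrm2+/- libraries (146 to 158) overlapped those of Sox2 (142 to 154) and lay above those of Nanog (127 to 137). Pou5f1 kept the highest place on either length, at 605 per kb of the longest transcript in Srrm2+/-. The 7 members together made up 2490, 2561 and 2561 CPM in WT and 2429, 2334 and 2438 CPM in Srrm2+/-. The summed level was lower in every Srrm2+/- library than in any WT library, with the falls of Nanog and Sox2 partly offset by the rise of Lin28a.

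**Figure D3:**
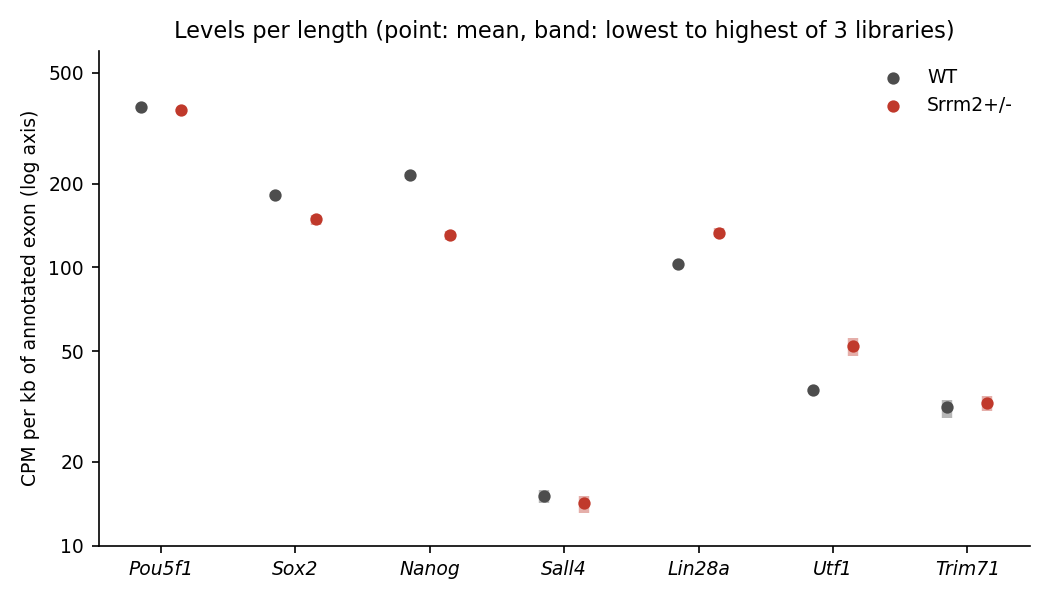
CPM per kb of annotated exon (vertical axis, log scale) of the 7 members, with points for group means and bands from the lowest to the highest of 3 libraries. Nanog is above Sox2 in WT, and in Srrm2+/- its band overlaps that of Lin28a (means 130 and 133), an overlap not seen per kb of the longest transcript (132 and 152).

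A ratio between 2 genes of the same library does not depend on how libraries are scaled, and each member was therefore also set against Pou5f1. For every 100 Pou5f1 counts there were 54.8, 57.2 and 58.7 Nanog counts in WT and 35.2, 37.3 and 33.8 in Srrm2+/-. The corresponding values were 43.3, 43.6 and 46.1 against 38.2, 36.0 and 37.1 for Sox2. The core trio therefore did not keep its proportions, since both partners of Pou5f1 were lower relative to it in every Srrm2+/- library. Lin28a counts per 100 Pou5f1 counts were 49.4, 46.3 and 50.2 in WT and 64.2, 63.4 and 66.5 in Srrm2+/-. For Utf1 they were 5.16, 5.17 and 5.43 against 8.22, 7.28 and 7.76. Neither ratio overlapped between the groups, while those of Sall4 (9.29 to 10.6 against 8.98 to 10.1) and Trim71 (31.7 to 37.5 against 35.1 to 38.9) did.

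On the log2 scale the ratio to Pou5f1 differed by -0.68 (SE 0.05) for Nanog, -0.26 (SE 0.04) for Sox2, 0.41 (SE 0.04) for Lin28a and 0.56 (SE 0.06) for Utf1. Each of these 4 had p = 0.1 in a two-sided exact permutation test, the smallest p that 3 against 3 libraries allow, and 0.15 after Benjamini-Hochberg adjustment over the 6 ratios. The differences for Sall4 (-0.04, SE 0.07, exact p = 0.6) and Trim71 (0.09, SE 0.08, exact p = 0.4) were about the size of their errors or smaller. Set against Sox2 in place of Pou5f1, the ratio of Sall4 turned to 0.22 (exact p = 0.1), since Sox2 itself fell.

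**Figure D4:**
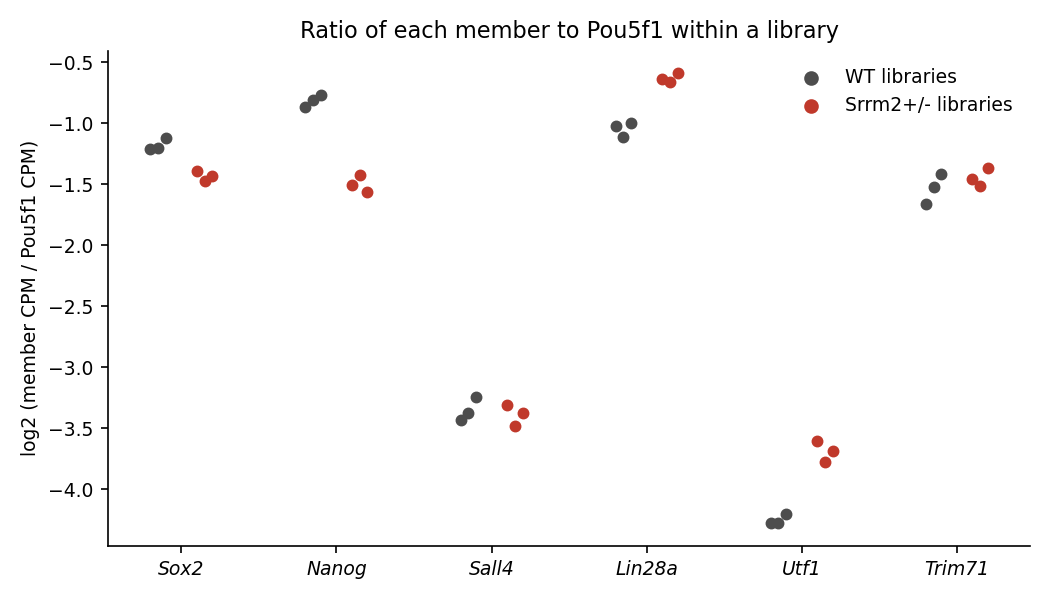
Log2 ratio of each member's CPM to that of Pou5f1 (vertical axis) in each of the 3 WT and 3 Srrm2+/- libraries, points being libraries. The groups are separated downwards for Sox2 and Nanog and upwards for Lin28a and Utf1, and they overlap for Sall4 and Trim71.

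Some reads of the members can also be claimed by other genes. In the counting used for the table, words of 31 bases place a read, and the share of a member's words that also occur in transcripts of other genes was 14.2% for Pou5f1, 10.7% for Nanog, 8.39% for Sall4, 5.18% for Lin28a, 1.24% for Trim71, 0.888% for Sox2 and 0 for Utf1. The annotated pseudogene Nanog-ps1 held 0 to 2 counts in any library, against 17308 or more for Nanog. Genes on the opposite strand overlap exons of Pou5f1 (Gm19553, 24 to 49 counts per library), Sall4 (Gm14261, 72 to 93), Lin28a (Gm13061, 2 to 12) and Trim71 (C130032M10Rik, 0 to 16). Whether counting used strand was not given in the sources used here, so a member and its antisense partner may share reads, although the counts assigned to these partners were low. Sox2 lies inside Sox2ot on the same strand, with no overlap of exons.

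The genes nearest to each member in pattern were found by the distance between log2 CPM profiles over the 6 libraries, each centred on its mean, among 8522 genes. For Nanog these were Evc (distance 0.0764), Nxt2 (0.0777) and Cnpy1 (0.109), with log2 fold changes of -0.70, -0.72 and -0.67. For Sox2 they were Erp44 (0.0440), Tfdp2 (0.0456) and Zfp97 (0.0472), and for Pou5f1 they were Rad23b (0.0291), Ctps2 (0.0307) and Pex19 (0.0358). No other member of the 7 was among the 3 nearest genes of any member. Lin28a was followed most closely by Tcfl5 (0.0346), Mkrn1 (0.0550) and Prps2 (0.0630), Utf1 by Rab11fip1 (0.0749), Spry1 (0.0799) and Map7d1 (0.0816), Sall4 by Arfgef2 (0.0501), Cnot3 (0.0517) and Pdcd2 (0.0522), and Trim71 by Psmd12 (0.0358), Nat10 (0.0421) and Pa2g4 (0.0455). The measure rests on the 6 libraries alone.

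Lists of genes of the same pathways were counted next. Over the lists, 80 genes were tested, 20 were called higher and 15 lower (43.8% called, against 25.3% of all tested genes), and 24 of the 35 calls held in each of 14 refits with other settings or with 1 library left out. The lists were chosen with earlier results known, so their counts describe these genes and give no separate evidence.

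The targets that POU5F1 and SOX2 activate moved mostly with Sox2 and Nanog. Of 10 target genes, 7 were called lower and 1 higher (80%, against 25.3% of all tested genes). The median log2 fold change was -0.25. Lefty1, a Nodal antagonist, went from 59.5, 53.5 and 50.9 CPM in WT to 24.3, 31.9 and 28.7 CPM in Srrm2+/- (log2 fold change -0.95, SE 0.10, adjusted p = 0.00017, edgeR). Spp1, which encodes the secreted protein osteopontin, fell by 0.63 (SE 0.04, adjusted p = 1.21e-05), and Fgf4, the growth factor that prompts exit from pluripotency, fell by 0.44 (SE 0.05, adjusted p = 0.0002). Zfp42 (REX1), a marker of naive cells, fell by 0.31 (SE 0.04, adjusted p = 0.000637). The falls of Rest (-0.18), Dppa5a (-0.18) and Gdf3 (-0.13) were small, and without WT replicate 3 these 3 calls were lost, which leaves 4 lower calls. The call of Gdf3 was lost in 11 of 14 refits and that of Dppa5a in 5. Jarid2, a cofactor of Polycomb complex PRC2, rose by 0.31 (SE 0.05, adjusted p = 0.00158). Tdgf1, the Nodal co-receptor gene, was not called at -0.07 (adjusted p = 0.219), nor was Fbxo15 (-0.33, adjusted p = 0.501), whose WT libraries ranged from 18.6 to 57.1 CPM. Utf1, which rose, belongs to the same class of targets, so the class did not share 1 direction.

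The partner transcription factors moved little. Of 11 genes, 2 were called lower and 9 were not called, and the median log2 fold change was 0.02. The called share was 18.2%, against 25.3% of all tested genes. Sall1, a relative and binding partner of SALL4, was at 63.6, 69.9 and 72.2 CPM in WT and 49.3, 45.9 and 48.1 CPM in Srrm2+/- (log2 fold change -0.52, SE 0.06, adjusted p = 0.000207, edgeR). Nr0b1 (DAX1), which binds POU5F1, fell by 0.23 (SE 0.04, adjusted p = 0.00208). The other 9, among them Zfp281 (0.08, adjusted p = 0.196) and Zscan10 (0.04, adjusted p = 0.686), were not called, with values from -0.08 to 0.11.

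Among chromatin partners, subunits of the NuRD complex, which SALL4 recruits, were more often higher. Of 10 tested subunits 5 were called higher and 1 lower (60%, against 25.3% of all tested genes), with a median of 0.19. Chd4, the ATPase of NuRD, was at 266, 272 and 273 CPM in WT and 331, 326 and 361 CPM in Srrm2+/- (log2 fold change 0.33, SE 0.05, adjusted p = 0.00101, edgeR). Gatad2a rose by 0.27, Mbd3, the scaffold that tells NuRD from related complexes, by 0.26, Rbbp7 by 0.24 and Mta3 by 0.21, the call of Mbd3 being lost without WT replicate 2, Srrm2+/- replicate 1 or Srrm2+/- replicate 3. The lower call was Hdac2 (-0.14, adjusted p = 0.0233), and it was lost on leaving out any 1 library other than WT replicate 2. Gatad2b was listed at 0 in all 6 libraries and was not tested. In the esBAF remodelling complex 3 of 9 genes (33.3%) were called higher (median 0.12), namely Smarca4 (BRG1, 0.22), Ss18 (0.19) and Smarce1 (0.12). Without WT replicate 1, WT replicate 3, Srrm2+/- replicate 1 or Srrm2+/- replicate 3 only 1 call remained. In the PAF1 elongation complex 1 of 6 genes (16.7%) was called higher (Paf1, 0.15, adjusted p = 0.0194). This call was lost on leaving out WT replicate 3, Srrm2+/- replicate 2 or Srrm2+/- replicate 3.

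The machinery that makes and removes let-7 was nearly level around Lin28a. Of 10 genes, 1 was called higher and 1 lower (20%, against 25.3% of all tested genes), and the median was -0.0025. The product of Lin28b, the paralogue of Lin28a, also blocks let-7 maturation. Lin28b was at 57.6, 54.9 and 56.3 CPM in WT and 66.0, 69.1 and 72.5 CPM in Srrm2+/- (log2 fold change 0.30, SE 0.05, adjusted p = 0.00159, edgeR). Both LIN28 genes were thus called higher. Ago2, the Argonaute that carries microRNAs, fell by 0.19 (SE 0.04, adjusted p = 0.00679). Drosha (0.04, adjusted p = 0.582) was not called. The signs of Dicer1, Dis3l2, Tarbp2 and Tut4 changed between settings, and these genes get no direction. Of the let-7 genes 10 were in the table, 7 of them at 0 counts in all libraries. Mir98 was tested, at 10 to 17 counts per library, and was not called (log2 fold change -0.55, SE 0.37, adjusted p = 0.323, edgeR). Mirlet7g held 2 to 6 counts and Mirlet7f-2 held 0 to 5. A total RNA library is not built to hold mature microRNAs, and let-7 levels were therefore not measurable here.

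Genes known as let-7 targets were called higher in 5 of 11 cases and lower in 1 (54.5%, against 25.3% of all tested genes). Their median log2 fold change was 0.12. Hmga2, an architectural chromatin protein gene repressed by let-7, was at 2.97, 2.87 and 2.09 CPM in WT and 11.9, 11.7 and 12.4 CPM in Srrm2+/- (log2 fold change 2.18, SE 0.13, adjusted p = 8.02e-06, edgeR). Its groups lay far apart, from a low WT level. Arid3a (0.49), Hmga1 (0.37), Igf2bp1 (0.32) and Lin28b (0.30) rose less. Igf2bp2, which encodes an mRNA-binding protein and carries CTACCTCA 1 time as Hmga2 does, fell by 0.54 (SE 0.07, adjusted p = 0.00044). Only CTACCTCA was searched, so a gene without it may still hold shorter let-7 sites, and site counts may be too low. Of the 6 listed genes with CTACCTCA, 4 were called higher (Hmga2, Igf2bp1, Lin28b and Arid3a). Igf2bp2 was called lower and Igf2bp3 (0.12, adjusted p = 0.113) was not called. Of the 5 without CTACCTCA, 1 was called higher (Hmga1) and 4 were not called, among them Mycn (0.12, adjusted p = 0.185). The difference between these 2 sets was not tested. Trim71, with the 4 sites printed above, was not called.

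The mRNAs that TRIM71 is known to repress were few. Of 4 tested genes 1 was called higher and 2 lower (75%, against 25.3% of all tested genes). Egr1, an immediate early transcription factor gene, was at 0.685, 0.675 and 1.12 CPM in WT and 4.06, 4.29 and 4.21 CPM in Srrm2+/- (log2 fold change 2.34, SE 0.20, adjusted p = 6.47e-05, edgeR). Rbl2, a retinoblastoma-like gene, fell by 1.01 (SE 0.15, adjusted p = 0.00138), and Mbnl1, a splicing regulator gene, fell by 0.42 (SE 0.11, adjusted p = 0.0259). The Mbnl1 call was lost without any 1 of the Srrm2+/- libraries, which leaves 1 lower call. Cdkn1a, the cell cycle inhibitor gene p21, was at 0.06 (adjusted p = 0.756). Egr1 and Rbl2 went in opposite directions while Trim71 itself did not pass the test.

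Paralogues moved in both directions. Of 12 tested, 5 were called higher and 2 lower (58.3%, against 25.3% of all tested genes), with a median of 0.27. Lin28b (0.30), given above, rose as Lin28a did. The SALL family split, since Sall2 went from 1.82, 1.49 and 1.64 CPM to 4.83, 5.08 and 5.48 CPM (log2 fold change 1.63, SE 0.13, adjusted p = 4.29e-05, edgeR). Sall3 went from 2.02, 2.42 and 1.98 CPM to 0.318, 0.754 and 0.648 CPM (log2 fold change -1.90, SE 0.29, adjusted p = 0.00155). Both had few counts, and their groups did not overlap. Among SOX genes Sox15 was close to the threshold (-0.27, adjusted p = 0.0513), and Sox3 at under 1 CPM was not called (0.72, adjusted p = 0.156). The ubiquitously expressed POU factor gene Pou2f1 was nearly level (0.0089, adjusted p = 0.887). Of the TRIM relatives, Trim32 (0.45), Trim3 (0.28) and Trim2 (0.27) rose, and without Srrm2+/- replicate 3 the calls of Trim3 and Trim2 were lost, leaving 3 paralogues called higher. The call of Trim2 was also lost without Srrm2+/- replicate 2.

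**Figure D5:**
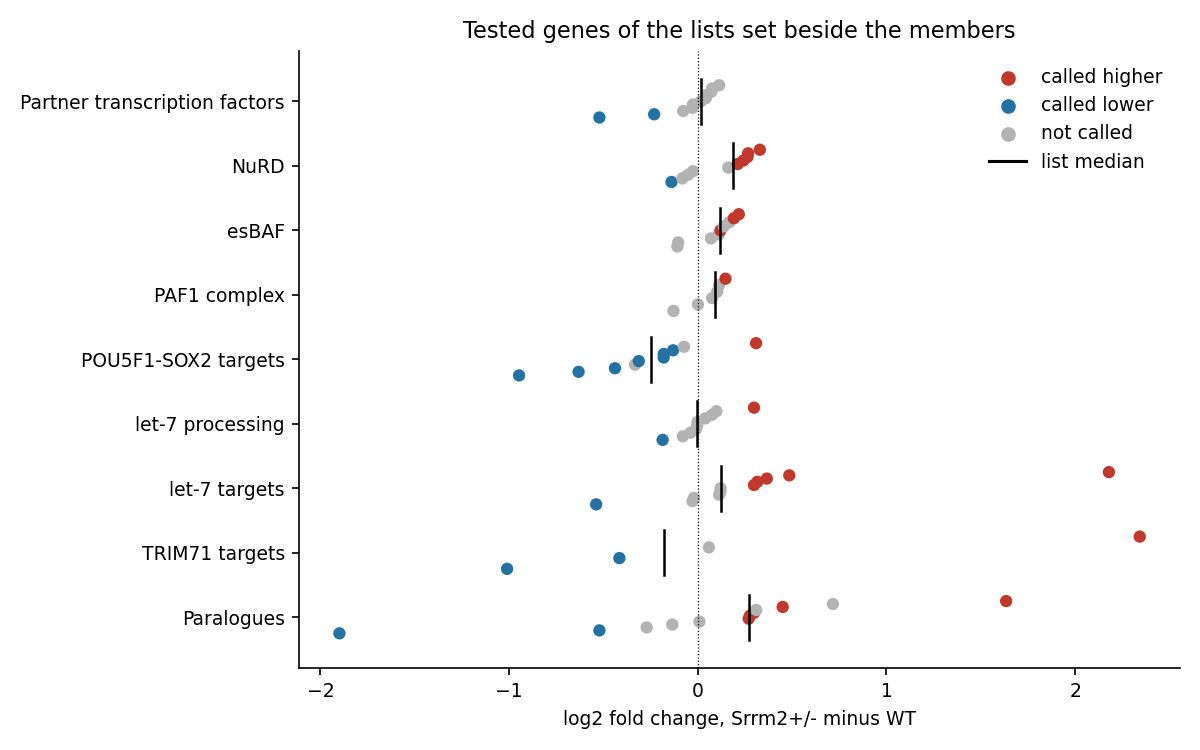
Log2 fold change (Srrm2+/- minus WT, horizontal axis) of every tested gene in the lists set beside the members, one row per list, with red for called higher, blue for called lower, grey for not called and a vertical bar for the list median. Target genes of POU5F1 and SOX2 lie mostly left of 0 (median -0.25), NuRD subunits mostly right of it (median 0.19), and Hmga2 (2.18) and Egr1 (2.34) lie farthest to the right.

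Markers of stem cells and of other cell types were summed in each library. Over all tested genes 25.3% were called, 13.6% higher and 11.7% lower. Among tested markers, 77.8% of stem cell, 80% of fibroblast and 66.7% of neural genes were called. The share was 60% for trophectoderm, 50% for primitive streak and mesoderm and 20% for primitive endoderm. The markers were chosen with earlier results known, so these shares describe them and give no separate evidence. The 9 stem cell markers, 3 of which are members, summed to 5356 to 5538 CPM in WT and 4599 to 4702 CPM in Srrm2+/-, with 7 called lower and 2, Pou5f1 and Tdgf1, not called. Klf4 (-0.82, adjusted p = 0.000126) and Esrrb (-0.38, adjusted p = 0.00154), both naive factors, fell together with Nanog. Primitive streak and mesoderm markers were at 2.28 to 3.37 against 6.29 to 6.79 CPM, with Mesp1 near 0. Among 6 tested, 3 were called higher, including T (1.89) and Kdr (3.34). Gsc was lower without being called (-0.998, adjusted p = 0.141). Mixl1 (0.318, adjusted p = 0.745) and Tbx6 (0.16, adjusted p = 0.684) were not called either. Fibroblast markers were at 3.21 to 3.34 against 6.66 to 10.4 CPM, with the defining markers Dcn and Lum at or near 0 in both groups. Of 5 tested, 4 were called higher, and Thy1 was not called (-0.70, adjusted p = 0.0939). Neural markers, mostly Pax6 and Tubb3, were at 74.7 to 80.8 against 50.2 to 53.4 CPM, 2 of 3 tested being called lower. Neurog2 held 0 or 1 counts in every library. Trophectoderm markers were at 54.9 to 55.9 against 39.0 to 42.4 CPM, mostly Tfap2c, with 2 called higher and 1 lower of 5 tested. Cdx2 was not tested, at 0 counts in WT and at 5, 8 and 17 counts in Srrm2+/- libraries 1 to 3. Primitive endoderm markers were at 2.39 to 2.70 against 2.56 to 3.64 CPM, with Sox17 and Foxa2 near 0. Of 5 tested, 1 was called higher (Dab2, 1.34), and Sox7 was lower without being called (-0.77, adjusted p = 0.0888). The defining stem cell markers, the core trio among them, were thus abundant in both groups. The part of these markers in the changes of the members was not tested.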

How the data were processed

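Total RNA was measured in 3 WT and 3 Srrm2+/- libraries, grouped and numbered by the sample titles. The authors ran Kallisto 0.46.1 against GENCODE mouse transcripts (GRCm38), and the estimated counts per gene that they deposited were not normalized. Reads that match several transcripts are divided among them by this tool, so that genes with shared sequence can exchange counts. The strand setting was not given in the sources used here.

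Estimated counts were rounded to whole numbers, giving 54151433 to 69933421 per library, and 42156 of 42450 identifiers had a symbol in GENCODE M21. Genes past filterByExpr of edgeR 4.0.16 (minimum count 10, minimum total 15) were tested with TMM normalization, glmQLFit and glmQLFTest, genotype as the sole term, in R 4.3.3, with Benjamini-Hochberg adjustment over all 18905 genes. Unless another tool is named, an adjusted p is from this edgeR test. The SE was derived from the log2 fold change and its F statistic. The script was tested on simulated counts. It recovered 59% of 2-fold and 52% of 1.5-fold changes, with 100 genes for each. Of all calls there, at an adjusted p under 0.05, 10.5% were false. A gene that was not called may therefore still have changed. Levels per kb used the merged exons of GENCODE M21. Within-library ratios were tested with exact permutation in scipy 1.17.1. Coordinates count from 1.

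Named genes were Srrm2, the members, the listed genes and the 3 nearest protein coding genes per member whose mean log2 CPM reached 3. Members, lists and markers were chosen with earlier results of these data known, so list counts were given with no set test. Alternatives were RLE and upper quartile scaling, DESeq2 1.42.0, limma 3.58.1 (voom), other count filters, a table without mitochondrial, rRNA and short RNA genes, the replicate number as a block, leaving out each library and stricter call rules.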

Additional observations from a re-analysis of the deposited data

How the results depend on the processing

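The direction and call of Pou5f1 (log2 fold change -0.05 to -0.02), Sox2 (-0.32 to -0.26), Nanog (-0.75 to -0.69), Sall4 (-0.12 to -0.02), Lin28a (0.35 to 0.40) and Utf1 (0.47 to 0.58) held under all 14 alternatives run for each, while Trim71, not called in any of them, ranged from -0.015 to 0.091 and turned to -0.0011 without Srrm2+/- replicate 3 and -0.015 without WT replicate 1. Genes called over the whole table numbered 4704 by DESeq2, 4789 by limma voom and 3515 to 4122 with 1 library left out, against 4781. At an adjusted p under 0.01 there were 2779 (1574 higher, 1205 lower). At an adjusted p under 0.05 with a change of 1 or more on the log2 scale there were 1153 (813 higher, 340 lower). At 0.01 the lists held 22 called genes, 12 of them higher, in place of 35 and 20. The ratio of Sall4 to Pou5f1 ranged from -0.081 to 0.013 with 1 library left out, including 0.0041 without Srrm2+/- replicate 2, and was 0.22 with Sox2 as the reference. Per kb of the longest transcript, levels in WT and Srrm2+/- were 622 and 605 for Pou5f1, 16.4 and 15.5 for Sall4, and 117 and 152 for Lin28a. Replicate numbers did not pair the libraries (correlation of same-numbered deviations -0.03 in each pair), and with the replicate block 4166 genes were called, Nanog standing at -0.72, with no call of a member changed. Counting members together with their pseudogenes gave no value, since no annotated pseudogene shared most of its words with a member. With 3 libraries per group, exact tests of single ratios could not go below 0.1.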
